A study of Mus musculus with 12 samples.

Results

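Aqp4, S100b, Slc1a2, Gja1, Clu and Sparcl1 are 6 genes whose products are used to recognise astrocytes, and they were taken by their names from a table of 14899 genes. The rows were taken by name and not by a cut on a measured value, but the names were chosen with earlier results of these data known. The table covers mouse neural progenitor cell (NPC) clones and the embryonic stem (ES) cell lines they were grown from, all hybrids of the strains 129Sv and Cast/EiJ, so that reads over strain variants tell the parental alleles apart. The XX NPC clones are named 129, C2, G4 and E1.2 and came from the XX ES line F1-21.6 (n = 4, 1 library each), and clone 129 must not be confused with the 129 allele. The XY NPC clones are mC3, mE6, mB4 and mG3 and came from the XY ES line F1-23 (n = 4, 1 library each). Each ES line has 1 library. Both lines were kept on mouse embryonic fibroblasts that had been inactivated with mitomycin C, in serum and leukaemia inhibitory factor, before their conversion to NPCs. The labels give no age, genotype change or drug treatment that sets the groups apart. Line, sex chromosomes and library name prefix coincide among the clones and cannot be told apart. Both ES lines carry the prefix of the XY clones, so within the XX line cell type and prefix cannot be told apart either.

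Astrocytes are the glial cells that take up transmitter and potassium around synapses, move water at the endfeet they place on blood vessels, and are joined to each other by gap junctions. They arise late from the same radial glia that first make neurons, and ES-derived NPCs resemble radial glia that can still form astrocytes when growth factors are withdrawn. Slc1a2 encodes the glutamate transporter GLT-1, which clears most synaptic glutamate in the forebrain, and Aqp4 encodes the main water channel of astrocyte endfeet. Gja1 encodes connexin 43, the major gap junction protein of astrocytes, which is also made by radial glia, fibroblasts and ES cells. S100b encodes a small calcium-binding protein, Sparcl1 (hevin) a secreted matrix protein that promotes the formation of synapses, and Clu (clusterin, or apolipoprotein J) a secreted chaperone.

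In the build mm9, Gja1 lies on chromosome 10 from 56097106 to 56110225 and S100b on the same chromosome from 75716581 to 75724064, both on the plus strand. Slc1a2 spans 102498840 to 102630941 of chromosome 2 on the plus strand, and Clu spans 66587320 to 66600382 of chromosome 14 on the plus strand. Sparcl1 covers 104508127 to 104543107 of chromosome 5 on the minus strand. No other gene row of the table overlaps any of the 6. RefSeq promoter windows (GRCm38.p6) were matched for 3 of the 6 genes. The 250 bases before the start of Gja1 (chr10:56377050-56377299, plus strand) and S100b (chr10:76253586-76253835, plus strand) are shown because these are the chromosome 10 genes with the steadiest and with one of the widest ranges of level between clones, and capitals mark the only match to the letters searched.
Gja1: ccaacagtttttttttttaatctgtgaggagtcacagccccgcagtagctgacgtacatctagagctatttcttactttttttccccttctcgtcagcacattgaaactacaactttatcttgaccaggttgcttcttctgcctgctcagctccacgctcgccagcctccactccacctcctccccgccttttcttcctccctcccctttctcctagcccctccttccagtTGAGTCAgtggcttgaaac
S100b: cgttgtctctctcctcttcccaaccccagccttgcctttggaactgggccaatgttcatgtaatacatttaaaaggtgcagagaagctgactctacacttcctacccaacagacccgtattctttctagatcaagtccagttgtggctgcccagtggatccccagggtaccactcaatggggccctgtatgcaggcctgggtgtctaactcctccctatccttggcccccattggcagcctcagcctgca
Searched on both strands were the letters TATAAA of a core promoter, the letters GGGCGG of an Sp1 site, TTCNNNGAA of a STAT site and TGANTCA of an AP-1 site, and the palindromic NFI motif. TGANTCA matched once in the Gja1 window, at -19 to -13 from the start, and 6.75% of all 32851 windows hold such a match. The other letters matched in neither window, and among all windows they occur in 12.4% (TATAAA), 32.7% (GGGCGG), 7.02% (TTCNNNGAA) and 0.0365% (NFI). Gja1 has 6 CpG in its window and S100b has 2, against a median of 6 in all windows. The window listed for Slc1a2 starts 48199 bases inside the gene and was not used.

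Libraries held 66611144 to 119266777 allele-informative counts in the NPC clones, and 61375911 in the XX line of ES cells and 65171172 in the XY line. Levels are given as FPKM (read fragments scaled to transcript length and library depth), which allows genes to be compared with each other. Summed over 11 markers of radial glia, the level was 2863 to 5497 FPKM in NPC clones, against 437 FPKM in the XX line of ES cells and 391 FPKM in the XY line. All 5 pluripotency markers in the table were lower in NPC clones, with a summed level of 2.27 to 5.29 FPKM there, against 713 and 441 FPKM in the ES lines. Gfap, the intermediate filament of mature astrocytes, was at 0.0693 to 0.436 FPKM in 7 of the NPC clones and at 5.32 FPKM in E1.2, against 0.160 FPKM in the XX line of ES cells and 0.234 FPKM in the XY line. Of the 11 radial glia markers 6 rose, 2 fell (Sox2 with a log2 difference of -1.75 and Prom1 with -1.57) and 3 did not pass. Over all genes tested 33.3% rose and 29.7% fell, by the test described below. Because these are bulk RNA samples, fewer cells that express a gene and less RNA per cell cannot be told apart.

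The first comparison asked which of the 6 genes changed between ES cells and NPC clones. Sparcl1, S100b, Slc1a2 and Aqp4 rose, Clu fell, and Gja1 did not pass. Counts were compared by edgeR's quasi-likelihood test with the line as a covariate, and p-values were adjusted by the Benjamini-Hochberg method over all 14561 genes tested, at a threshold of 0.05. The share of all genes that passed was 63%, made up of 33.3% that rose and 29.7% that fell, so that 5 of 6 is to be read against a background in which most genes passed. The fitted median log2 difference of the 6 genes was 9.73, or 8.08 with the genes without ES counts set to their lower bound, against 0.11 over all genes tested. How many of all genes had every clone above or below both ES lines was not counted, so such statements below only describe the gene named.

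**Figure D1:**
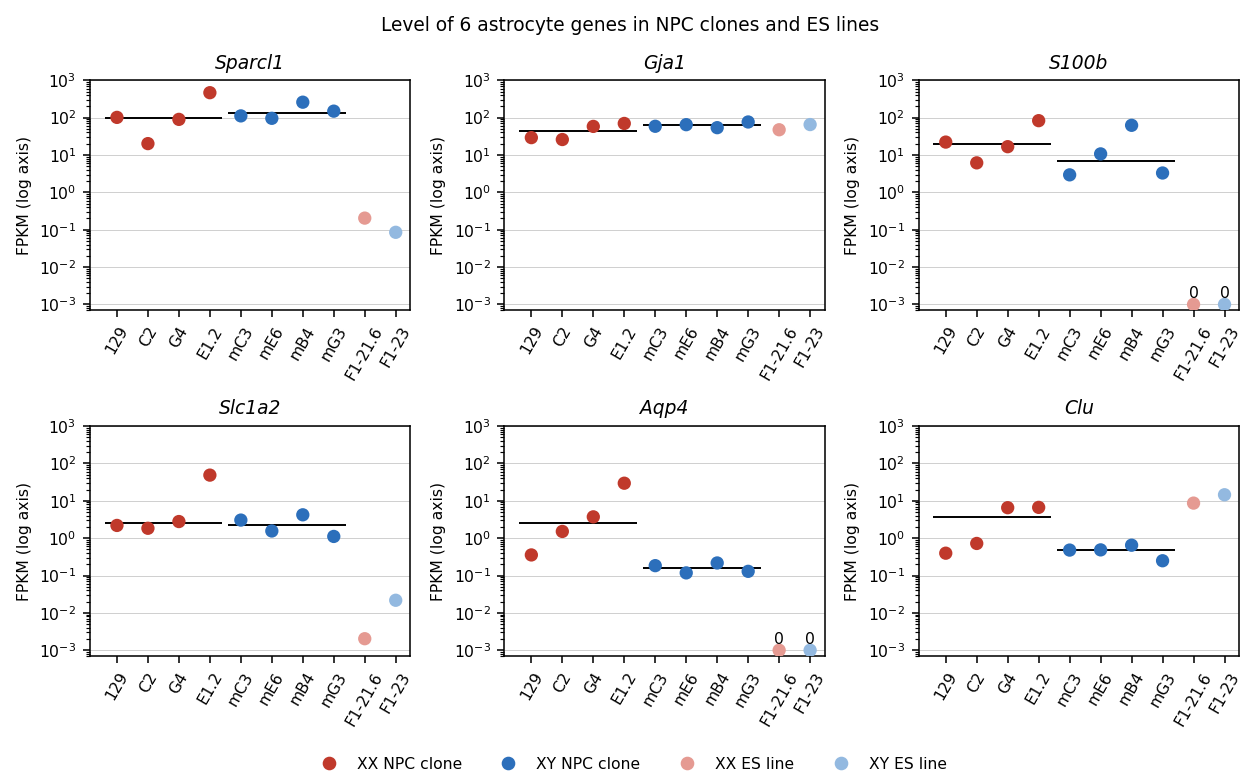
Level of the 6 genes in each library (FPKM, log axis), with XX NPC clones, XY NPC clones and ES lines from left to right and a line at the median of each group of 4 clones. Values listed as 0 are drawn at the foot of the axis and marked 0. Sparcl1, S100b, Slc1a2 and Aqp4 lie above both ES lines in all 8 clones, Clu lies below both in all 8, and Gja1 overlaps them. The share of all genes with such separation was not counted.

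Slc1a2 showed the uptake side of glutamate handling. It had 2.19 FPKM in clone 129, 1.84 in C2, 2.78 in G4, 48.6 in E1.2 (XX), and 3.04 FPKM in clone mC3, 1.55 in mE6, 4.21 in mB4 and 1.11 in mG3 (XY), against 0.00203 FPKM in the XX line of ES cells and 0.0217 FPKM in the XY line. All 8 clones were above both ES lines, 7 of them within a narrow band and E1.2 far above the rest. The NPC mean was 8.17 ± 16.4 FPKM (SD, n = 8), against 0.0119 ± 0.0139 FPKM in ES lines (SD, n = 2), a log2 difference of 8.39 ± 2.51 (SE, edgeR adjusted p = 0.0160). Without E1.2 the difference was 7.82 ± 1.22 (SE, edgeR adjusted p = 0.000741), and without the XX ES line, which had no Slc1a2 counts, it was 6.72 (edgeR adjusted p = 0.0831). With XX clones alone against the ES lines the adjusted p was 0.0727. On log2(FPKM + 1) with limma the difference was 2.18 (adjusted p = 0.0631), a scale that understates the change of genes that are low in ES cells.

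Aqp4, on the minus strand of chromosome 18 from 15547903 to 15562193 in mm9, was the most uneven of the 6 genes. It had 0.355 FPKM in clone 129, 1.51 in C2, 3.72 in G4, 29.5 in E1.2 (XX), and 0.184 FPKM in clone mC3, 0.118 in mE6, 0.217 in mB4 and 0.129 in mG3 (XY), and was listed at 0 in both ES lines. Every XX clone was above every XY clone, a separation whose share among all genes was not counted. The 4 XY clones lay close together near the bottom of the range. The NPC mean was 4.47 ± 10.2 FPKM (SD, n = 8). In counts scaled to library depth (CPM), the mean of the clones was at least 1237-fold higher than in ES lines, taking a floor of 3 counts over both ES libraries, and the lowest clone was at least 28.0-fold higher (edgeR adjusted p = 0.0116). Without E1.2, an alternative chosen after seeing the data for all such bounds, the mean of the other 7 clones was at least 239-fold higher. The call was kept without E1.2 (edgeR adjusted p = 0.00129), and lost without the XX ES line (edgeR adjusted p = 0.157) and with XX clones alone against the ES lines (edgeR adjusted p = 0.104). With limma the difference was 1.22 on log2(FPKM + 1) (adjusted p = 0.265) and 3.14 on log2(FPKM + 0.1) (adjusted p = 0.0518).

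S100b varied over a wide range in both lines. It had 22.1 FPKM in clone 129, 6.16 in C2, 16.7 in G4, 82.9 in E1.2 (XX), and 2.94 FPKM in clone mC3, 10.7 in mE6, 62.3 in mB4 and 3.29 in mG3 (XY), and was listed at 0 in both ES lines. One clone of each line, E1.2 and mB4, stood well above the others, and the XX and XY clones overlapped. The NPC mean was 25.9 ± 30.1 FPKM (SD, n = 8). CPM values were at least 218-fold higher on average and at least 24.7-fold higher in the lowest clone than the floor of 3 counts over both ES libraries (edgeR adjusted p = 0.00944), and without E1.2 the mean was at least 144-fold higher. Without the XX ES line the adjusted p was 0.0603, and with XY clones alone against the ES lines it was 0.0731.

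Sparcl1 was the most abundant of the 6 genes in NPC clones. It had 102 FPKM in clone 129, 20.2 in C2, 89.8 in G4, 465 in E1.2 (XX), and 111 FPKM in clone mC3, 95.9 in mE6, 259 in mB4 and 149 in mG3 (XY), against 0.204 FPKM in the XX line of ES cells and 0.0852 FPKM in the XY line. The lowest clone, C2, was still far above both ES lines, and E1.2 and mB4 were the highest, as for S100b. Its mean was 161 ± 140 FPKM in NPC clones (SD, n = 8), against 0.145 ± 0.0842 FPKM in ES lines (SD, n = 2), a log2 difference of 11.07 ± 1.80 (SE, edgeR adjusted p = 0.000607). This call was kept in each setting that was run, with edgeR adjusted p up to 0.00892 when a library was left out and 0.0487 with XX clones alone.

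Clu, the other secreted protein, went the opposite way. It had 0.396 FPKM in clone 129, 0.721 in C2, 6.54 in G4, 6.66 in E1.2 (XX), and 0.479 FPKM in clone mC3, 0.485 in mE6, 0.647 in mB4 and 0.248 in mG3 (XY), against 8.67 FPKM in the XX line of ES cells and 14.5 FPKM in the XY line. All 8 clones were below both ES lines, but G4 and E1.2 came close to the XX line while the other 6 clones lay far lower. The mean was 2.02 ± 2.83 FPKM in NPC clones (SD, n = 8), against 11.6 ± 4.13 FPKM in ES lines (SD, n = 2), a log2 difference of -3.92 ± 1.08 (SE, edgeR adjusted p = 0.0110). The call was lost with XX clones alone against the ES lines (-1.45, edgeR adjusted p = 0.482), without the XY ES line (-1.42, edgeR adjusted p = 0.377) and without the line covariate (-2.65, edgeR adjusted p = 0.0673).

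Gja1 was high in both cell types. It had 29.2 FPKM in clone 129, 25.9 in C2, 58.2 in G4, 69.8 in E1.2 (XX), and 58.7 FPKM in clone mC3, 64.8 in mE6, 53.9 in mB4 and 76.4 in mG3 (XY), against 47.4 FPKM in the XX line of ES cells and 65.2 FPKM in the XY line. Of the 8 clones 2 lay above both ES lines, 2 below both and the rest between them. Its mean was 54.6 ± 18.2 FPKM in NPC clones (SD, n = 8), against 56.3 ± 12.6 FPKM in ES lines (SD, n = 2), and the log2 difference of -0.09 ± 0.36 did not pass (SE, edgeR adjusted p = 0.840). The sign of that difference turned without clone 129 (0.0033) or without C2 (0.014).

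The ES libraries also held RNA of fibroblast genes. Col1a1, which encodes type I collagen, was at 0.0709 to 0.422 FPKM in NPC clones, against 10.2 FPKM in the XX line of ES cells and 24.9 FPKM in the XY line. Its 129 share was 97.3% in the XX and 61.0% in the XY ES line. Among 9 fibroblast markers, 4 were lower and 1 was higher in NPC clones, against 29.7% of all genes that fell and 33.3% that rose. The summed level of the 9 was 18.4 to 62.0 FPKM in NPC clones, against 27.9 FPKM in the XX line of ES cells and 47.2 FPKM in the XY line. None of the 9 was listed at 0 in an ES line. Fibroblasts are known to make Gja1 and Clu, and the part of fibroblast RNA in the ES levels of these genes was not tested.

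By mean level in NPC clones the order was Sparcl1, Gja1, S100b, Slc1a2, Aqp4 and Clu. Sparcl1 was above Gja1 in 7 of 8 clones, Gja1 above S100b in 6 of 8, S100b above Slc1a2 in 7 of 8 and Slc1a2 above Aqp4 in 7 of 8. Aqp4 was above Clu in 2 of 8 clones, E1.2 and C2. The order of these neighbours by mean rests on E1.2, without which the mean was 0.890 FPKM for Aqp4 and 1.36 FPKM for Clu. All neighbours in the order overlapped in their ranges over clones.

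The spread between clones was described by the standard deviation (SD) of log2(FPKM + 1) over the 8 clones, beside the same measure in 10693 genes with a mean of at least 1 FPKM, whose median SD was 0.241. Aqp4 had an SD of 1.67, S100b 1.65, Slc1a2 1.45, Sparcl1 1.3, Clu 1.10 and Gja1 0.566. Among those genes Aqp4 and S100b stood at percentile 99.2 each, Slc1a2 at 98.7, Sparcl1 at 98.1, Clu at 97.1 and Gja1 at 88.1. Without E1.2 the SD was 0.794 for Aqp4, 0.440 for Slc1a2, 1.43 for S100b, 1.10 for Sparcl1, 0.898 for Clu and 0.581 for Gja1. Within the lines the spread is given as the highest over the lowest FPKM, since the added 1 compresses values under 1 FPKM. That ratio was 83.1 among XX clones and 1.84 among XY clones for Aqp4, 26.5 among XX and 3.79 among XY clones for Slc1a2, 23.1 among XX and 2.70 among XY clones for Sparcl1, 16.8 among XX and 2.61 among XY clones for Clu, and 2.69 among XX and 1.42 among XY clones for Gja1. With all clones S100b was the only one of the 6 with the wider range among XY clones, 21.2, against 13.5 among XX clones. Without E1.2 the ratio among XX clones was 10.5 for Aqp4, 1.51 for Slc1a2, 5.03 for Sparcl1 and 3.6 for S100b, so that Slc1a2 too was then wider among XY clones.

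The XX clone E1.2 stood at or near the top throughout. It was the highest of the 8 clones for Aqp4, S100b, Slc1a2, Clu and Sparcl1, and the second highest, after mG3, for Gja1. Among all 10693 genes E1.2 was the highest clone for 19.7%. In E1.2 the level was 136 times the median of the other 7 clones for Aqp4, 22.2 times for Slc1a2, 13.7 times for Clu, 7.75 times for S100b, 4.58 times for Sparcl1 and 1.2 times for Gja1. Set against the highest of the other clones, the ratio was 11.5 for Slc1a2 and 7.95 for Aqp4 but 1.02 for Clu, where G4 was equally high, and 0.913 for Gja1.

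Other astrocyte genes were also high in E1.2. Of 12 endfoot, water and potassium genes 8 had their highest level there, as did 13 of 24 other astrocyte markers and 5 of 9 genes of glutamate handling, against 6 of 25 gliogenic regulators and 2 of 11 radial glia markers. Agt, the precursor of angiotensin, was at 83.4 FPKM in E1.2 and at most 5.28 FPKM in the other clones, and Atp1b2, a glial sodium pump subunit, was at 143 FPKM and at most 39.4 FPKM. Slc38a3, a glutamine transporter, was at 75.9 FPKM in E1.2 and at most 27.6 FPKM elsewhere. The median log2(FPKM + 1) difference of E1.2 over the median of the other clones was 2.60 for the 6 genes, 1.02 for the endfoot genes, 1.01 for the other astrocyte markers, 0.72 for glutamate handling and 0.37 for secreted genes, against -0.10 for all genes. It was 1.83 for the 4 fibroblast markers with a mean of at least 1 FPKM, 0.04 for gliogenic regulators, -0.13 for radial glia markers, -0.19 for S100 genes and -0.71 for gap junction genes. Some but not all fibroblast genes were also highest in E1.2. Col3a1, Lum and Dcn were at 24.2, 6.54 and 3.02 FPKM in E1.2 and at most 1.79, 0.621 and 0.155 FPKM in the other clones. Postn and Pdgfrb were at 0.305 and 0.149 FPKM in E1.2 and at most 0.0532 and 0.00264 FPKM in the other clones. Col1a1 was at 0.161 FPKM in E1.2, within the range of the other clones. Of the 4 fibroblast markers with a mean of at least 1 FPKM, 3 were highest in E1.2. The other, Fbn1, was lowest there, at 10.4 FPKM against 13.3 to 25.3 FPKM in the other clones. All 9 markers summed to 62.0 FPKM in E1.2 and to at most 31.8 FPKM in the other clones. Their part in the levels of E1.2 was not tested. Tnc, a matrix protein of radial glia, was lower in E1.2 (34.9 FPKM) than in any other clone (at least 172 FPKM). So were the radial glia markers Nes (73.0 against at least 194 FPKM) and Vim (492 against at least 670 FPKM). The astrocyte markers Bmpr1b (1.75 against at least 5.95 FPKM) and Gldc (21.4 against at least 25.4 FPKM) were lowest there too. Of the neuron markers, Dcx (17.3 against at most 8.39 FPKM) and Gad1 were highest in E1.2, and Tubb3 and Elavl4 lowest.

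**Figure D2:**
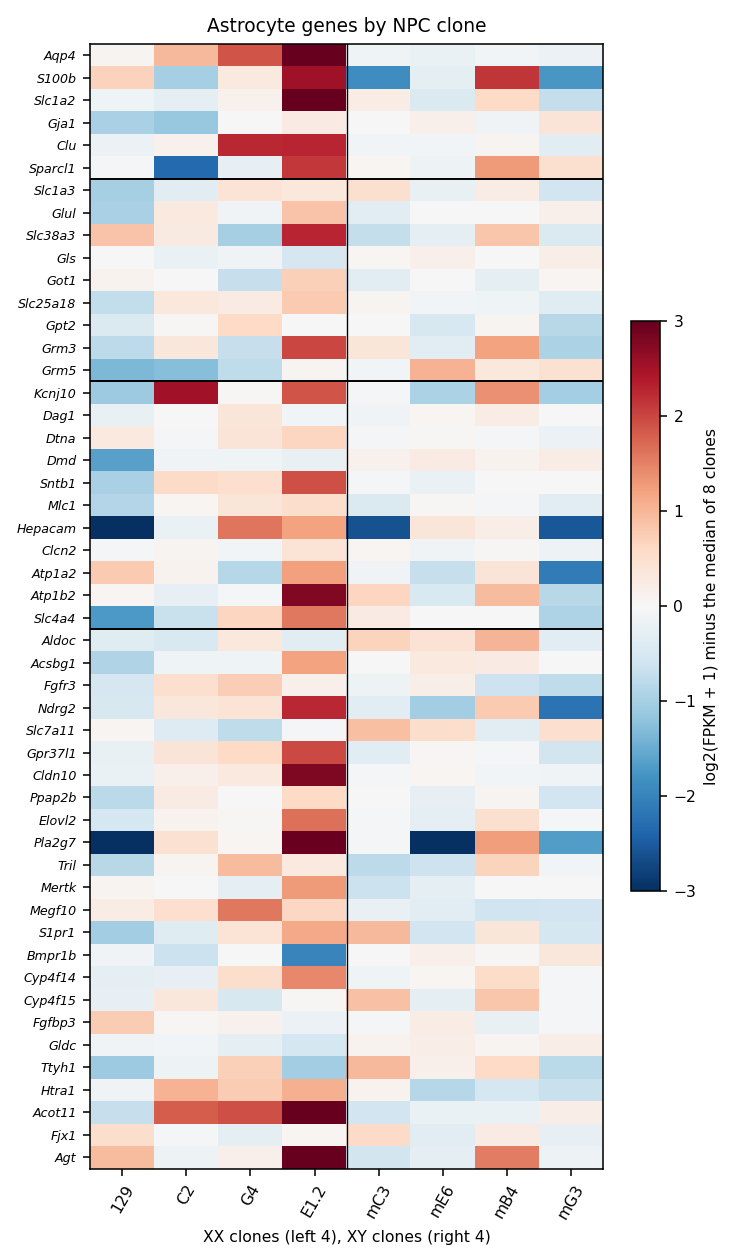
Level of the 6 genes (top block), glutamate handling, endfoot and other astrocyte genes in each NPC clone, as log2(FPKM + 1) minus the median of the 8 clones, for the genes shown, which have a mean of at least 1 FPKM. Red is above and blue below the median. The column of E1.2 holds most of the deep red cells, Agt, Slc1a2 and Aqp4 among them, while Gja1 is pale.

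XX and XY clones were compared next, to ask whether the level of the 6 genes followed the line. None of the 6 passed in edgeR, in which 1.29% of 13591 genes passed, and 2 of the 6, Aqp4 and Clu, had an unadjusted p under 0.05, as did 23.9% of all genes. The log2 difference of XX over XY clones was 5.81 ± 1.4 for Aqp4 (SE, edgeR adjusted p = 0.0754) and 2.96 ± 0.95 for Clu (SE, edgeR adjusted p = 0.126). DESeq2, which called 14.4% of 13521 genes, called both (adjusted p = 4.8e-05 for Aqp4 and 0.00654 for Clu) and gave no adjusted p for Slc1a2, limma on log2(FPKM + 1) called none, and edgeR called Aqp4 once clone 129 was left out (adjusted p = 0.0384). Mean Aqp4 was 8.78 ± 13.9 FPKM in XX clones, against 0.162 ± 0.0465 FPKM in XY clones (SD, n = 4 each), and without E1.2 the XX mean was 1.86 ± 1.71 FPKM (SD, n = 3).

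The remaining genes did not pass either. S100b had a log2 difference of 0.83 ± 1.14 (SE, edgeR adjusted p = 0.689), Slc1a2 2.56 ± 1.18 (SE, edgeR adjusted p = 0.230), Sparcl1 0.17 ± 0.83 (SE, edgeR adjusted p = 0.918) and Gja1 -0.39 ± 0.34 (SE, edgeR adjusted p = 0.516). The direction of 3 of these rests on E1.2, since without it the values were -0.32 for S100b, -0.078 for Slc1a2 and -1.12 for Sparcl1. Whether the change between ES cells and NPC clones differed between the lines was tested as an interaction, in which 0.101% of 14848 genes passed. Library name prefix coincides with this interaction and cannot be told apart from it. On counts simulated with the same spread for every gene, the interaction test recovered 4% of 2-fold and 58% of 4-fold changes. These rates may not hold for the 6 genes, whose spread between clones was wider than that of most genes. Of the 6 genes none passed or had an unadjusted p under 0.05 in edgeR, against 1629 of all 14848 genes with such a p. DESeq2 called none of the 6, against 568 of 13893 genes. An unadjusted p under 0.05 in DESeq2 was seen for 1 of the 6, and for 2019 of all genes. The term was 3.64 ± 2.10 for Clu (SE, edgeR adjusted p = 0.610), -2.36 ± 2.13 for Sparcl1 (SE, edgeR adjusted p = 0.798) and 0.08 ± 0.77 for Gja1 (SE, edgeR adjusted p = 1), with 1 ES library per line. No size is given for Aqp4, S100b and Slc1a2, which had no counts in at least 1 ES line. The edgeR adjusted p of Slc1a2 was 0.5676, and 0.220 without E1.2, with an unadjusted p of 0.00938 there.

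The next question was whether both alleles of each gene were used in each clone. The share of counts from 129 was called monoallelic where the major allele held at least 85% of at least 20 counts and an exact binomial test passed, and biallelic at 70% or less. Of the 48 pairs of gene and clone 7 were monoallelic, spread over Aqp4 (3 clones), Clu (2), S100b (1) and Gja1 (1), with none for Slc1a2 and Sparcl1. Over all autosomal genes 6.79% of the pairs were monoallelic, and 16.5% of 12108 genes were so in at least 1 clone, against 4 of the 6 genes. Of these calls 6 rest on 48 to 179 counts. With at least 100 counts required 3 calls were left, and with a major allele of at least 95% there were 4.

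**Figure D3:**
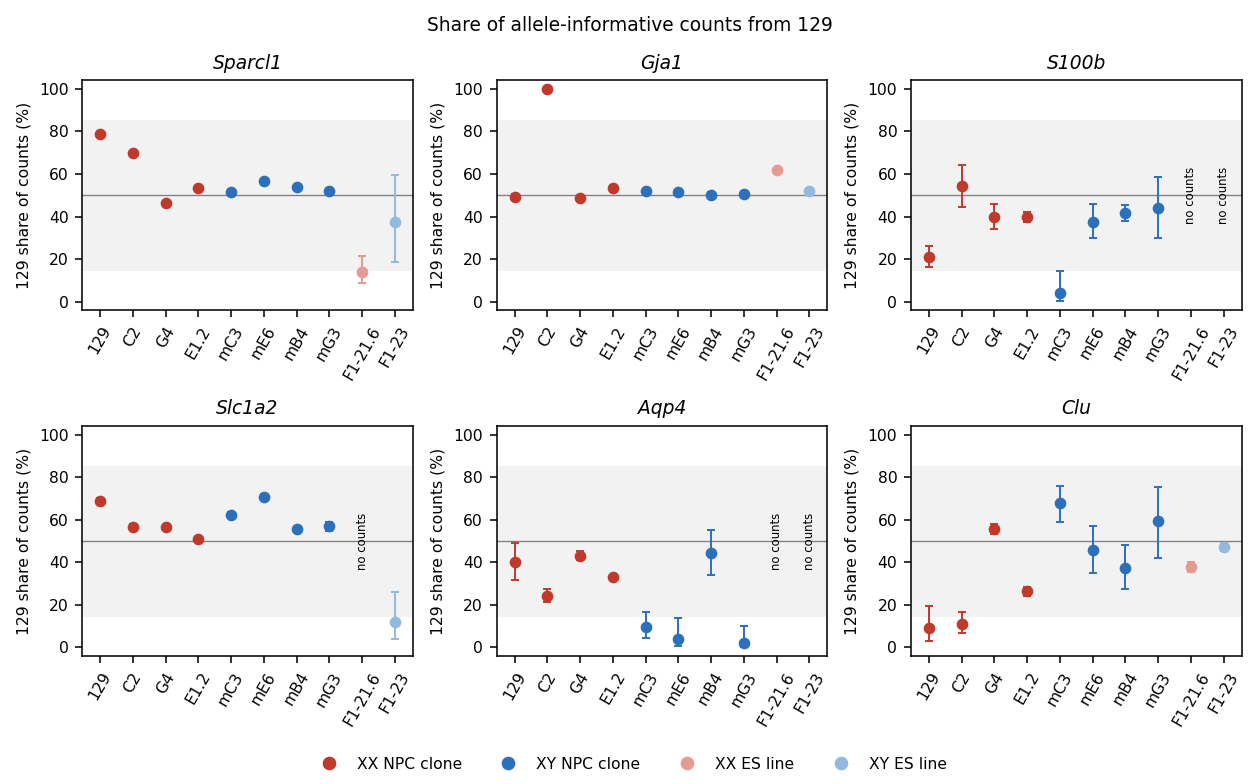
Share of allele-informative counts from 129 (percent) for each gene and library, with exact 95% intervals that cover counting error only. The grey band is where no monoallelic call is made (15% to 85%), and libraries without counts are marked. Gja1 stands at 100% in C2 and near 50% in the other clones, and Aqp4 is near 0% in 3 XY clones.

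Gja1 had the clearest case. In C2 all 6782 counts came from 129, which allows a Cast share of up to 0.0544% (exact 95% interval). Its 129 share was 49.2% in clone 129, 48.8% in G4, 53.4% in E1.2 (XX), and 52.0% in clone mC3, 51.6% in mE6, 50.3% in mB4 and 50.8% in mG3 (XY), against 61.8% in the XX line of ES cells and 52.2% in the XY line. One clone thus used a single allele while the 7 others used both almost evenly. The level times the share gives 25.9 FPKM from the 129 allele and 0 from the Cast allele in C2, against 14.3 to 38.8 FPKM from 129 and 14.8 to 37.7 FPKM from Cast in the other clones. C2 had the lowest total of the 8 clones, 25.9 FPKM, close to the 29.2 FPKM of clone 129, in which both alleles were used.

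The 10 nearest testable genes on chromosome 10 were all biallelic in C2, with 129 shares of 42.6% to 66.7%. Hsf2, a heat shock transcription factor on one side, was at 44.9%, and Fabp7, the radial glia fatty acid binding protein on the same side, at 59.9%. On the whole of chromosome 10 in C2, 5.20% of 635 genes were monoallelic and the median share was 49.9%. Among 10006 genes with at least 100 counts in all 8 clones, 4 others came from 129 alone in C2 and from both alleles elsewhere, and those with the most counts were Zfp26, Clic5 and Kctd18. With Gja1 included, 4 of these 5 genes had their lowest FPKM in C2, against 5.99% of 8220 genes that were biallelic in every clone.

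**Figure D4:**
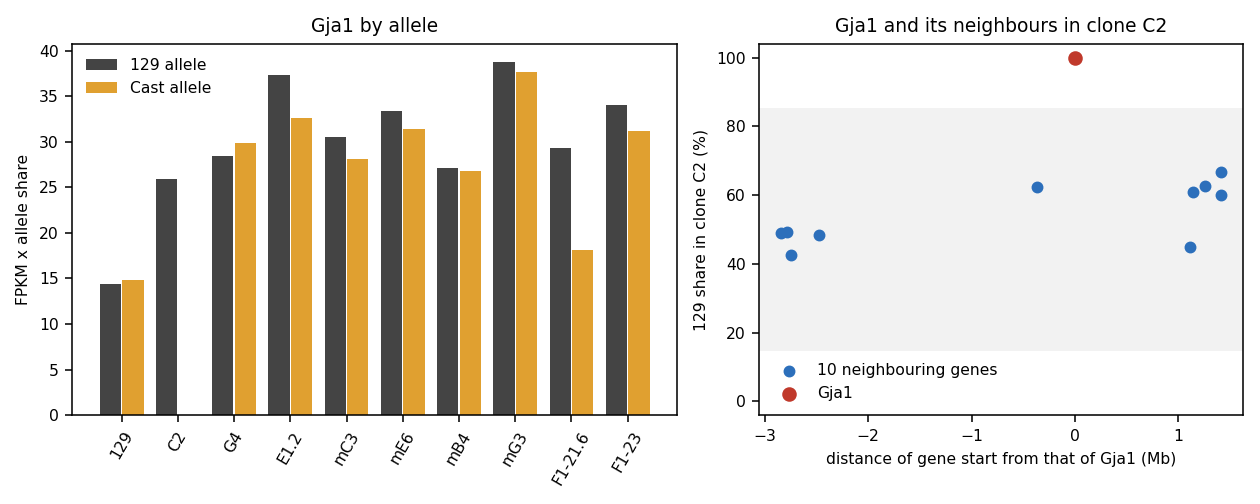
Left, Gja1 level by allele in each library (FPKM times allele share), with 129 in dark grey and Cast in orange bars. Right, 129 share in clone C2 (percent) of Gja1 and its 10 nearest testable genes by distance of their start from that of Gja1 (Mb). The Cast bar is missing in C2 alone, and the neighbours lie between 42.6% and 66.7%.

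Aqp4 leaned to the Cast allele. Its 129 share was 40.3% in clone 129, 24.4% in C2, 43.1% in G4, 33.2% in E1.2 (XX), and 9.43% in clone mC3, 4.08% in mE6, 44.6% in mB4 and 1.89% in mG3 (XY). The share was under 50% in all 8 clones, and mC3, mE6 and mG3 were called monoallelic for Cast. Those calls rest on 106, 49 and 53 counts, against 20127 counts in E1.2. Among genes with at least 100 counts in every clone, those with Cast alone in mC3, mE6 and mG3 and both alleles elsewhere were Peg3, Apeg3 and Usp29. These share the imprinted Peg3 region of chromosome 7. Aqp4 itself is under that count minimum and fell in the range with no call in C2. S100a10 was also called Cast in mC3, mE6 and mG3 alone, with 129 shares of 0.683%, 0.0460% and 0.0171%, but its lowest count in a clone was 3. Of the 10 nearest genes of Aqp4, none was monoallelic in mC3, 1 in mG3 and 2 in mE6, Impact among them, another gene known to be imprinted in mouse.

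S100b, Clu and Slc1a2 were less even than Gja1. The 129 share of S100b was 20.8% in clone 129, 54.4% in C2, 40.0% in G4, 39.9% in E1.2 (XX), and 4.17% in clone mC3, 37.6% in mE6, 41.7% in mB4 and 44.0% in mG3 (XY), where the value of mC3 is 2 of 48 counts. Clu had 8.93% in clone 129, 11.2% in C2, 55.7% in G4, 26.5% in E1.2 (XX), and 67.7% in clone mC3, 45.8% in mE6, 37.4% in mB4 and 59.5% in mG3 (XY), against 37.8% in the XX line of ES cells and 47.2% in the XY line. Clu thus came mostly from Cast in clones 129 and C2, on 56 and 179 counts. Of its 10 nearest testable genes 2 were monoallelic in each of these clones, all for Cast. In clone 129 they were Trim35 and 1700001G11Rik, whose rows overlap and which were biallelic in C2. In C2 they were Scara3 and Ptk2b, on 26 and 55 counts. On the whole of chromosome 14, 10.3% of 427 genes were monoallelic in clone 129 and 7.08% of 466 in C2. None of the 10 nearest genes of S100b was monoallelic in mC3. Slc1a2 had 68.8% in clone 129, 56.5% in C2, 56.6% in G4, 50.7% in E1.2 (XX), and 62.3% in clone mC3, 70.7% in mE6, 55.6% in mB4 and 56.9% in mG3 (XY), against 12.2% of 41 counts in the XY ES line. All 8 clones leaned to 129 for Slc1a2, and the clone with by far the most counts, E1.2, was the most even.

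Sparcl1 was farthest from an even share in clones 129 and C2. Its 129 share was 78.9% in clone 129, 69.6% in C2, 46.6% in G4, 53.2% in E1.2 (XX), and 51.7% in clone mC3, 56.6% in mE6, 54.1% in mB4 and 52.1% in mG3 (XY), against 14.2% of 134 counts in the XX line of ES cells and 37.5% of 24 counts in the XY line. Clone 129 fell in the range with no call and C2 within the biallelic range. In C2 the 129 allele gave 14.04 FPKM and the Cast allele 6.12 FPKM, both lower than in any other clone.

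Differences in the 129 share among clones were tested against the spread usual for genes of that depth, as a chi-square divided by an overdispersion that ran from 4.67 at 28 counts to 97.5 at 78916 counts. By this test 19.6% of 12108 genes differed among clones (adjusted p under 0.05). Of the 6 genes 5 passed, with adjusted p of 2.55e-87 for Gja1, 1.71e-44 for Sparcl1, 5.33e-08 for Slc1a2, 6.81e-06 for Clu and 0.0218 for Aqp4, while S100b did not (adjusted p = 0.662). Gja1 rests on C2, without which its adjusted p was 1. Aqp4 missed the threshold without C2 (adjusted p = 0.0609), without G4 (adjusted p = 0.143) and with 1 overdispersion for all depths (adjusted p = 0.0844). At least 100 counts per clone left 4 of the 6 genes testable, of which Gja1, Sparcl1 and Slc1a2 passed.

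Allele shares of XX and XY clones overlapped for each of the 6 genes. The mean 129 share of Clu was 25.6% ± 21.5 in XX clones, against 52.6% ± 13.6 in XY clones (SD, n = 4 each), a difference of -27.0 points (two-sided exact permutation p = 0.0857, where 70 splits allow no p below 0.0286). Without G4 that difference was -37.1 points (two-sided exact permutation p = 0.0286). Aqp4 had a mean of 35.2% ± 8.36 in XX clones, against 15.0% ± 19.97 in XY clones (SD, n = 4 each), a difference of 20.2 points (two-sided exact permutation p = 0.143), and 30.1 points without mB4 (two-sided exact permutation p = 0.0286). For the other 4 genes the differences ran from -3.23 points for Slc1a2 to 11.7 points for Gja1, with exact permutation p from 0.371 to 0.714. None of the 6 passed after adjustment over 11253 genes, of which 5.48% had an unadjusted p under 0.05, against 0 of the 6.

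Genes of the same functions were set beside the 6 in the comparison of NPC clones and ES lines. The count of each list is to be read against the 33.3% of all genes that rose and the 29.7% that fell. Of 10 genes of glutamate handling 7 rose and 2 fell. Slc1a3, the glutamate transporter GLAST of radial glia, rose by a log2 difference of 4.72 (edgeR adjusted p = 5.77e-05) and had 137 to 381 FPKM in NPC clones, against 9.60 FPKM in the XX line of ES cells and 9.10 FPKM in the XY line, so that this transporter was far above Slc1a2 in each clone. Grm3, a metabotropic glutamate receptor, rose by 11.15, and Grm5, another, was at least 2738-fold higher. The neuronal transporter Slc1a1 and the aminotransferase Got1 fell, with log2 differences of -2.58 and -2.59.

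Genes of endfeet, water and potassium were mixed. Of 15 tested 5 rose, 3 fell and 7 did not pass. Mlc1, a membrane protein of perivascular endfeet, was at least 871-fold higher, its partner Hepacam rose by 8.90 and the bicarbonate transporter Slc4a4 by 5.55. Trpv4, a calcium channel, fell with a log2 difference of -4.83, and the chloride channel Clcn2 with -0.94. Kcnj10, the potassium channel Kir4.1, did not pass and had 0.0693 to 12.1 FPKM in NPC clones, against 0.722 FPKM in the XX line of ES cells and 0.777 FPKM in the XY line.

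Among 7 other gap junction genes 3 rose and 4 did not pass, and of those that rose Panx1 (pannexin 1) had a log2 difference of 2.22 and Cnst (consortin) of 0.45. Of 7 other S100 family genes 1 rose and 4 fell, S100a16 with a log2 difference of 1.99, and S100a6, S100a1 and S100a13 with -6.73, -4.87 and -2.64. Of 17 other secreted and matrix genes 7 rose and 2 fell, with Tnc, the BMP antagonist Chrdl1 and the granin Scg3 higher by 6.08, 6.02 and 5.34, and the thrombospondins Thbs2 and Thbs1 lower (-3.20 and -2.94).

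Of 29 further astrocyte markers 22 rose, 1 fell and 6 did not pass. Dio2, the deiodinase that activates thyroid hormone, was at least 211-fold higher by the mean of the clones, at least 56.0-fold without E1.2 and at least 16.4-fold in the lowest clone, the neurotensin receptor gene Ntsr2 at least 46.9-fold higher, and Tril, a Toll-like receptor partner, rose by 9.27. Gldc, of glycine cleavage, fell with -1.83, and Gfap did not pass (-0.25 ± 1.75 SE, edgeR adjusted p = 0.908). Of 26 regulators of gliogenesis 16 rose and 3 fell, among them Nfia, a nuclear factor that starts gliogenesis, higher by 9.69, Lhx2 by 8.02 and Pou3f2 at least 2662-fold. Rbpj, the effector of Notch signalling, fell with -2.15, and Id1 with -0.93. In the comparison of XX and XY clones none of the 107 tested genes of these 7 lists passed in edgeR, 22 (20.6%) had an unadjusted p under 0.05, against 23.9% of all genes, and DESeq2 called 12 (11.2%), against 14.4% of all genes. In the interaction 1 of 111 passed in edgeR, Nfia, and DESeq2 called 7 (6.31%), against 4.09% of all genes.

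**Figure D5:**
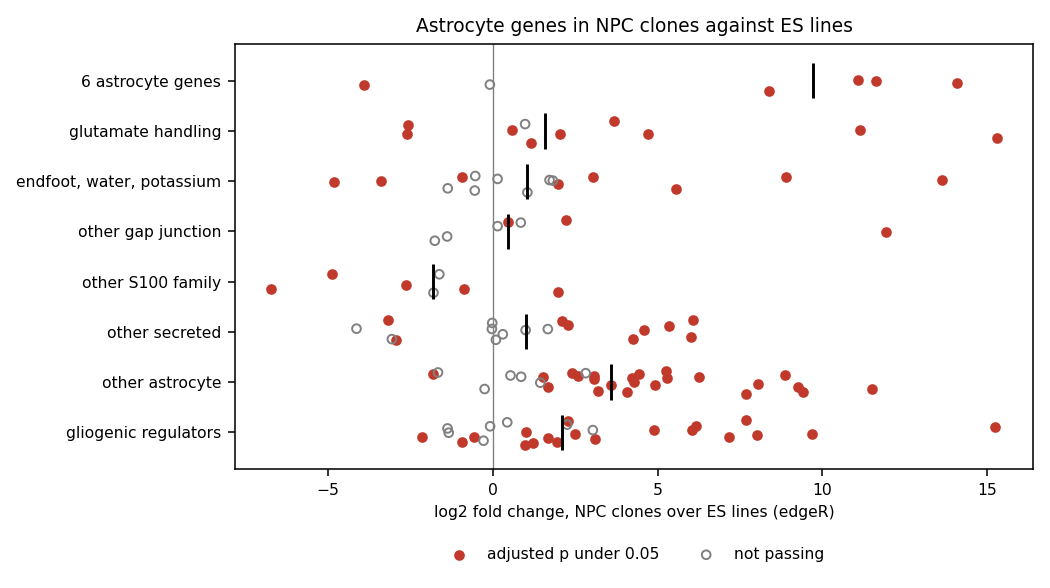
Log2 difference of NPC clones over ES lines (edgeR) for the 6 genes and 7 lists of related genes, 1 point per gene, filled where the adjusted p was under 0.05, with a line at the median of each list. Genes without ES counts, Aqp4 and S100b among them, are drawn at fitted values that depend on the prior count. Points of the 6 genes lie at the right except Gja1 near 0 and Clu at -3.92.

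Counts for markers of other neural and vascular cells are also to be read against the 33.3% of all genes that rose and the 29.7% that fell. Of 10 neuron markers 2 rose and 4 fell, of 10 oligodendrocyte markers 3 rose and 2 fell, and of 6 endothelial markers 1 rose and 3 fell. Summed levels were 10.1 to 25.7 FPKM in NPC clones, against 26.9 FPKM in the XX line of ES cells and 75.3 FPKM in the XY line for neuron markers, and 0.130 to 1.22 FPKM, against 0.174 and 0.547 FPKM, for the 4 microglia markers in the table.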

How the data were processed

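Polyadenylated RNA had been read as paired ends of 100 bases. The authors deposited 1 table that gives, per gene and library, whole-number counts over strain variants, the share of them from 129 (a ratio, printed in percent) and FPKM. TopHat 1.4.0, Cufflinks 1.3.0 and SAMtools with the build mm9 were used, per the submitters' processing notes. The step that made each column, strand use and whether a read over several variants counts once are not given in the sources used here, so counts are not molecules and all intervals and floors cover counting error only. Counts per gene depend on its variants. 2 repeat libraries were not analysed here. The members and lists were chosen with earlier results of these data known.

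The main test was the quasi-likelihood F test of edgeR 4.0.16 in R 4.3.3, after filterByExpr and TMM scaling, with Benjamini-Hochberg adjusted p under 0.05. DESeq2 1.42.0, limma 3.58.1 on log2(FPKM + 1) and on log2(FPKM + 0.1), no filter, other size factors, other count minimums and each library left out were alternatives. Allele tests used scipy 1.17.1. Only the edgeR tests and the heterogeneity test were tried on simulated data. In these edgeR recovered 61% of 2-fold changes for NPC clones against ES lines, 80% for XX against XY clones and 4% for the interaction. Whether NPC libraries of 1 line are separate cultures beyond being clones is not stated, so p-values measure the spread between clones. Lists name up to 3 genes with the largest change each way, a few of which are not reported here. Like genes are the 3 with the highest Pearson r over clones. Genes outside these rules (such as Gfap, Kcnj10, Agt and the fibroblast genes) were chosen after their values were seen.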

Additional observations from a re-analysis of the deposited data

Results flagged for a closer look

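In 36 groups of 4 or 8 clones, the highest or lowest clone was compared with the rest, and 8 stood apart by Dixon's criterion. Its nominal rate of 1 in 20 assumes separate groups of normally distributed values. Here FPKM was not log-transformed and the groups of 4 lie within those of 8, so the 8 cannot be set against that rate. Clone E1.2 stood apart for Aqp4, at 29.5 FPKM, both among all 8 NPC clones and among the 4 XX clones, with the next clone, G4, at 3.72 FPKM. The same clone stood apart for Slc1a2, at 48.6 FPKM, in both groupings, where the next clone was mB4 at 4.21 FPKM among all 8 and G4 at 2.78 FPKM among the 4 XX clones. For S100b, mB4 stood apart among the 4 XY clones, at 62.3 FPKM, and mC3 stood apart among them with a 129 share of 4.17%, on 48 counts. Gja1 in C2 stood apart with a 129 share of 100%, among all 8 and among the 4 XX clones.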

How the results depend on the processing

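No paired analysis was possible because the clone numbers follow the order of the samples and pair neither XX with XY clones nor NPC with ES libraries. For NPC clones against ES lines 5539 genes passed with XX clones alone (9173 in all). The number of the 6 genes passing was 5, but 3 with limma on log2(FPKM + 1), with or without a filter, 2 with XX clones alone, and 4 with DESeq2, with limma on log2(FPKM + 0.1), without the line covariate and with XY clones alone. For XX against XY clones 175 genes passed in edgeR, 1947 in DESeq2, and 375, 381 and 468 in limma with pseudocounts of 1 and 0.1 and without a filter, with 2 of the 6 genes in DESeq2. The interaction gave 15 genes, and 568 in DESeq2. Requiring 100 counts cut the 7 monoallelic calls to 3, and a major allele of 95% cut them to 4. Heterogeneity passed in 5 of the 6 genes, and in 3 at a minimum of 100 counts.

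With 1 library left out, NPC clones against ES lines gave 7032 to 9423 genes and 2 to 5 of the 6, XX against XY 7 to 496 genes and 0 to 1, the interaction 3 to 30 genes and 0 to 0, heterogeneity 2110 to 2234 genes and 3 to 5, and the 129 share of XX against XY 0 to 1 of the 6. The median SD between clones was 1.37, with a range of 0.846 to 1.48. XX against XY gave 496, 59, 20 and 95 genes without clone 129, C2, G4 and E1.2, and 11, 8, 7 and 12 without mC3, mE6, mB4 and mG3.

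Signs turned in these cases. Gja1 in NPC against ES was -0.09, and 0.0033 without clone 129 and 0.014 without C2. Sparcl1 in XX against XY was 0.17, but -0.55, -0.57 and -0.55 in limma with pseudocounts of 1 and 0.1 and without a filter, and -1.12 without E1.2, where S100b was -0.32 and Slc1a2 -0.078. The Gja1 interaction was 0.08, and -0.10 without G4 and -0.17 without E1.2. The XX minus XY share of S100b was 6.89 points, but -0.881 at a minimum of 100 counts and -2.34 without mC3, and that of Gja1 11.7 points, and -0.729 without C2. With 1 library left out these values ranged up to -0.21 for Gja1 in NPC against ES, 2.61 for S100b, 2.96 for Slc1a2 and 0.58 for Sparcl1 in XX against XY, 0.29 for the Gja1 interaction, and 12.9 and 16.4 points for the shares of S100b and Gja1. The causes were not tested. DESeq2 gave no adjusted p for Slc1a2. Each ES line has 1 library, and allele calls of Aqp4, S100b and Clu rest on few counts in most clones.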

Other observations

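Genes whose level followed the 6 most closely over the clones were found by Pearson's r of log2(FPKM + 1) over 8 clones, among 10069 genes. These r describe clones that share lines and library sets, and no p is given. Aqp4 was followed by Psap (r = 0.995), which encodes the lysosomal protein prosaposin and had 716 FPKM in E1.2 and 270 to 414 FPKM in the other clones, by Pi15 (0.994) and by Tmem132b (0.992). Slc1a2 was followed by Sod3 (0.977), extracellular superoxide dismutase, with 58.2 FPKM in E1.2 and 4.78 to 9.07 FPKM elsewhere, and by Amot (0.975) and Cyp7b1 (0.974). Clu was followed by Fos (0.992), an immediate early gene and subunit of AP-1, with 67.3 and 58.4 FPKM in G4 and E1.2 and 2.32 to 5.09 FPKM in the other 6 clones. S100b was followed by Cbr4 (0.969), Gja1 by Asb8 (0.960), and Sparcl1 by Nsun3 (0.935). In the 7 clones without E1.2, an alternative chosen after seeing the data, 2 of the 3 genes closest to S100b and 1 of those closest to Gja1 remained, and none for the other 4 genes.

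Asb8 appeared in a second way. Like Clu, it was called Cast in clones 129 and C2 alone. Among genes with at least 100 counts in every clone, it was the only one with these calls and both alleles elsewhere. Clu itself is under that count minimum and fell in the range with no call in E1.2. The 129 share of Asb8 was 0.0733% in clone 129 and 0.0423% in C2. Its level was 5.33 and 5.57 FPKM in those clones, against 12.02 to 13.5 FPKM in the other 6. Plekha2 was the only gene above that count minimum called Cast in mC3 alone, as S100b was, with both alleles elsewhere. S100b itself is under the minimum and fell in the range with no call in clone 129. The 129 share of Plekha2 was 5.10% in mC3, against 33.5% to 43.2% in the other clones. Among related genes, Grm5 came from 129 in mC3 and from Cast in mB4, and Hepacam from 129 in mE6, while Kcnj10 came from Cast in E1.2.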
